A study of Mus musculus with 16 samples.

Results

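The genes described here are the Wnt ligands, their Frizzled receptors, the secreted antagonists of the Sfrp and Dkk families, the TCF/LEF transcription factors and the feedback regulators of the pathway. Results of these data were known when the families were picked. The members were chosen by symbol: all protein-coding genes named Wnt, Fzd, Sfrp1 to Sfrp5 or Dkk1 to Dkk4, together with Tcf7, Tcf7l1, Tcf7l2, Lef1, Axin2, Rnf43, Znrf3, Nkd1 and Lgr5. This gave 46 of the 21897 protein-coding genes, and of 35975 genes in all, that matched the annotation: 19 ligands, 10 Frizzled receptors, 8 secreted antagonists, 4 TCF/LEF factors and 5 feedback regulators, with Lgr5 counted among the last. No gene carries the symbol Sfrp3; Frzb, the mouse gene for that protein, belongs to the list of other pathway genes below.

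Messenger RNA was sequenced in bulk from ES-E14TG2a, a mouse embryonic stem cell line also called E14. The cells were WT or TKO, a genotype that the labels do not spell out; it was read as combined loss of Dnmt1, Dnmt3a and Dnmt3b, the enzymes that methylate DNA. The labels do not say whether the TKO line is 1 clone. Cells of each genotype were taken on days 0, 2, 4 and 7 while they differentiated into EpiLC (epiblast-like cells), with 2 libraries in each of the 8 groups. Day 0 cells of both genotypes had grown on fibronectin in serum-free N2B27 medium containing LIF (1000 U/ml), a Gsk3 inhibitor (3 µM), a MEK inhibitor (1 µM) and vitamin C (100 µg/ml). All later cells of both genotypes were in N2B27 with Fgf2 (12 ng/ml), Activin A (20 ng/ml) and a little knock-out serum, and were split once more at day 4. The libraries are called biological replicates, with nothing said of separate cultures, so p-values measure the spread between these libraries, which may be technical.

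Wnt proteins are lipid-modified secreted ligands that bind a Frizzled receptor and the co-receptors Lrp5 or Lrp6. Binding stops a complex of Axin, Apc, Gsk3 and casein kinase from marking beta-catenin for destruction, and beta-catenin then enters the nucleus and acts through the TCF/LEF factors; a Gsk3 inhibitor stabilises beta-catenin without a ligand. In the mouse embryo Wnt3 and the pathway are needed to form the primitive streak, and in embryonic stem cells Gsk3 inhibition helps to hold the naive state.

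Depth lay between 33168178 and 58197630 estimated counts a library. Levels are given as CPM (counts scaled by effective library size, as edgeR computes them), and levels of different genes are set side by side only as TPM (the authors' values, corrected for transcript length). Dnmt1 stood at 36.2 to 55.9 CPM in the 8 TKO libraries and at 310.3 to 545 CPM in the 8 WT libraries. Dnmt3b, in contrast, was alike at day 0 (27.3 and 29.3 CPM in WT, 29.3 and 28.9 CPM in TKO) and lower in TKO later. Within TKO, Dnmt3a and Dnmt3b were called higher at days 2, 4 and 7 than at day 0 in the edgeR tests described below. The 3 genes summed to 1100 and 1032 CPM in TKO day 2 and to 3312 and 3048 CPM in WT day 2. Dnmt3b also stands among the formative markers summed next. Markers of naive pluripotency (10 genes) summed to 2909 to 3422 CPM at day 0 and to 37.1 to 46.4 CPM at day 7, and 7 formative and primed epiblast markers to 58.9 to 60.2 CPM at day 0 and 1408 to 2433 CPM at day 2. Pairs of libraries stood further apart in 3 groups than elsewhere: 163 genes of at least 5 CPM differed over 2-fold between the TKO day 4 libraries, 114 between the WT day 0 libraries and 79 between the WT day 4 libraries, against at most 14 in the other groups. In TKO day 4 Dnmt3a was at 187 and 33.9 CPM, so replicate 1 lies nearer to WT day 4 (297 and 380.1 CPM). For Dnmt3a that library goes against the reading of TKO taken here, as Dnmt3b does at day 0, and not against a label. Of the Wnt genes at 5 CPM or more, Wnt8a and Fzd10 differed over 2-fold between the WT day 4 libraries and Wnt8a and Wnt5b between the TKO day 4 libraries, and genotype differences that lose their call without 1 of these libraries are given with that value too. In bulk samples fewer cells of a type and less RNA per cell cannot be told apart.

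The Wnt genes ranged from undetected to a group mean of 90.1 TPM. By group mean TPM, 35 of the 46 reached 1 TPM in at least 1 group and 21 reached 10 TPM. The 12 with the highest group means were Fzd7 (90.1 ± 18.8 TPM, SD over 2 libraries, in TKO day 4), Sfrp1 (84.7 ± 15.2 TPM in WT day 7), Tcf7, Tcf7l1, Lef1, Fzd5, Axin2, Nkd1, Wnt8a, Dkk1, Fzd10 and Sfrp2 (38.6 ± 5.02 TPM in TKO day 4). The neighbours Fzd7 and Sfrp1 did not differ beyond their spread, nor did Nkd1 (47.96 ± 1.57 TPM), Wnt8a (47.9 ± 0.795 TPM) and Dkk1 (47.5 ± 3.85 TPM), all in TKO day 7. Wnt5b was the 1 ligand at 1 TPM or more in all 8 groups. At the low end 11 genes stayed under 1 TPM everywhere: Wnt1, Wnt2, Wnt2b, Wnt3a, Wnt7a, Wnt7b, Wnt8b, Wnt9b, Wnt16, Dkk2 and Dkk4. Wnt1 had no counts in 6 of the 8 groups and Dkk4 none in WT day 4 and WT day 7, and these were the 2 members that did not pass the filter on low counts.

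**Figure D1:**
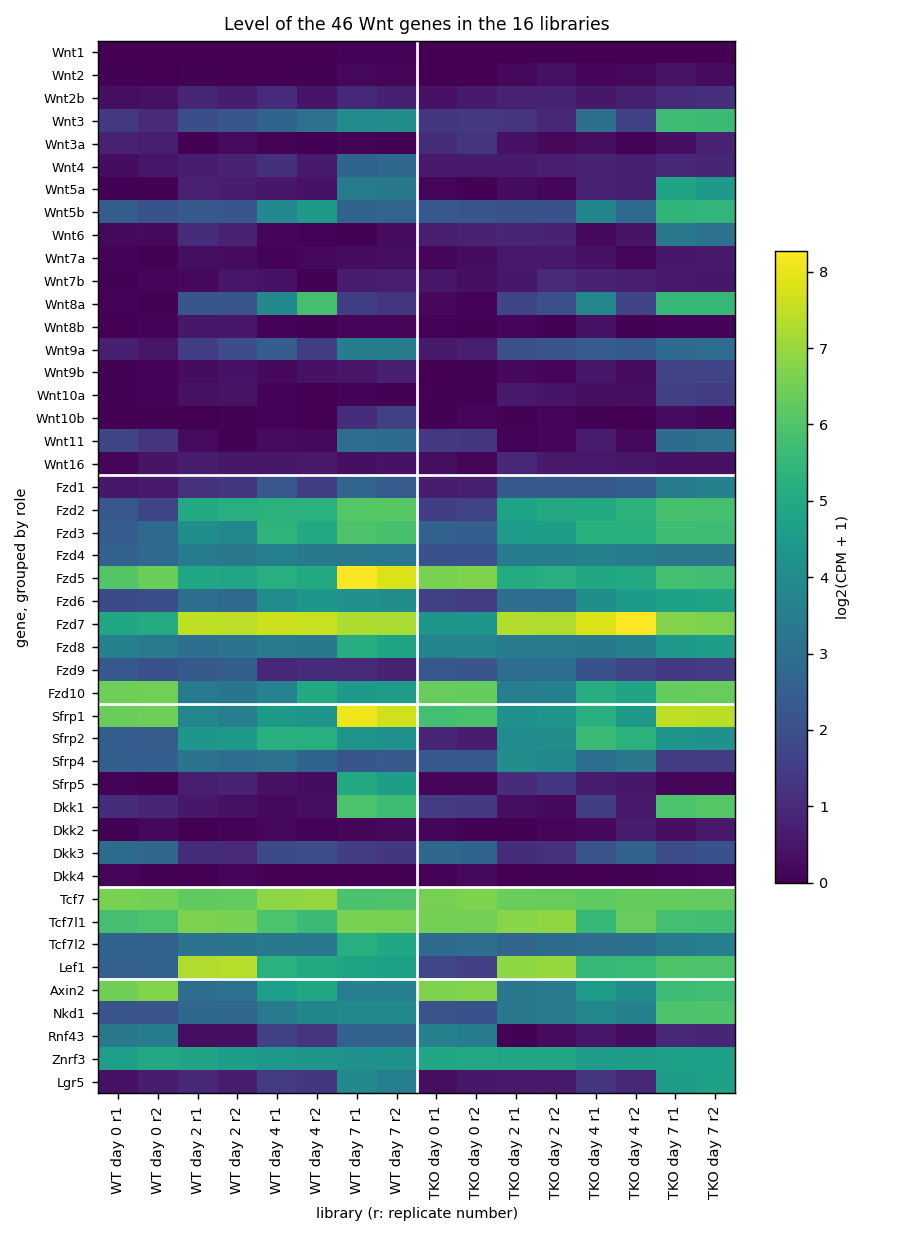
Level of each of the 46 Wnt genes, as log2(CPM + 1) by colour, in the 16 libraries; rows are genes grouped by role (ligands, Frizzled receptors, antagonists, TCF/LEF factors, feedback regulators with Lgr5) and columns are libraries. Dark is low and bright is high: most ligand rows are dark before day 7, and Tcf7 and Tcf7l1 are bright in all columns.

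Summed by role, the ligands varied most. The 19 ligands together held 5.72 and 5.36 TPM in WT day 0, 11.3 and 10.03 TPM in WT day 2, 28.8 and 69.8 TPM in WT day 4 and 33.4 and 34.04 TPM in WT day 7. In TKO the sums were 7.57 and 7.197, 9.76 and 10.7, 30.7 and 12.2, then 145 and 147 TPM at day 7. The day 7 TKO sums lay above all other libraries, and the 2 libraries of a group lay furthest apart in WT day 4 and TKO day 4. The sum of the 5 feedback genes went from 43.3 and 64.4 TPM in WT day 0 to 14.4 and 11.7 TPM in WT day 2, and in TKO from 62.8 and 67.1 to 18.1 and 20.6 TPM. At day 7 they stood at 27.5 and 27.9 TPM in WT and 91.1 and 96.9 TPM in TKO. The Frizzled sum was highest at day 7 in WT, at 187 and 171 TPM, against 157 and 159 TPM in TKO. These sums were not tested.

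**Figure D2:**
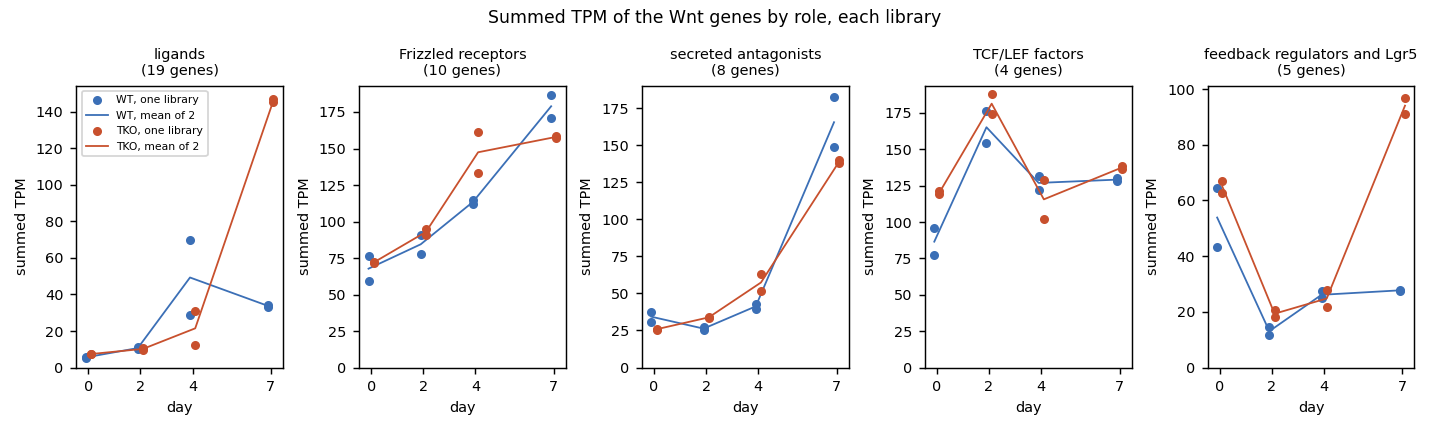
Summed TPM of the Wnt genes of each role against day of differentiation; points are single libraries and lines join the means of 2 libraries, WT in blue and TKO in red. At day 7 both TKO libraries lie far above both WT libraries for ligands and feedback regulators, while the sums of the TCF/LEF factors lie close.

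Promoter sequences are shown for 4 members, chosen after their values were seen: Axin2 and Wnt6, higher in TKO at day 7, Sfrp5, lower in TKO at day 7, and Sfrp2, lower in TKO at day 0. DNA methyltransferases act on cytosines in CG dinucleotides, which are in capitals. Each run holds the 250 bases before the RefSeq start site (build GRCm38.p6), read 5′ to 3′ on the gene's own strand: Axin2 at chr11:108920099-108920348 (+), Sfrp2 at chr3:83766071-83766320 (+), Sfrp5 at chr19:42202253-42202502 (−) and Wnt6 at chr1:74771642-74771891 (+).
Axin2: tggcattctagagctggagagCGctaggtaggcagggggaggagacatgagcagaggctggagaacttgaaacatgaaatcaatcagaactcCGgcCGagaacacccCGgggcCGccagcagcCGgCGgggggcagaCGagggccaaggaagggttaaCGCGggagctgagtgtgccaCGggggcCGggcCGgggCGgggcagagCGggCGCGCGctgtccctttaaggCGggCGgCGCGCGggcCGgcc
Sfrp2: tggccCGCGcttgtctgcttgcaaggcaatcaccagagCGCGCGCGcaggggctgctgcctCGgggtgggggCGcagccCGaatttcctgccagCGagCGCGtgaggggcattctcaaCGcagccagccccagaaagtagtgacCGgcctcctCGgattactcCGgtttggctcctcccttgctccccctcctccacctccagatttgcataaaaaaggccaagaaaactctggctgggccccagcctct
Sfrp5: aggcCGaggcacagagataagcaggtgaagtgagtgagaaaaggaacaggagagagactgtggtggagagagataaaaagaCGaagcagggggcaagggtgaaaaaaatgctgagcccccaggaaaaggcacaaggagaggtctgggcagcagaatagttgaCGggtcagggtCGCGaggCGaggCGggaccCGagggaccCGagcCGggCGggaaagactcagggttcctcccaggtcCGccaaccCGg
Wnt6: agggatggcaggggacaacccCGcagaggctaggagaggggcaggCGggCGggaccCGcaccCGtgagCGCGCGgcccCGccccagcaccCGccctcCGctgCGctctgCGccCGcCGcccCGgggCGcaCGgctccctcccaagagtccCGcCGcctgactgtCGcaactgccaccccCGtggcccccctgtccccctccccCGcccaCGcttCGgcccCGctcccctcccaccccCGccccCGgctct
The windows hold 24 CG dinucleotides for Axin2, 16 for Sfrp2, 13 for Sfrp5 and 28 for Wnt6. RefSeq entries were matched for 32 of the 46 members, with 41 windows; those without an entry were Dkk3, Dkk4, Fzd2, Fzd3, Fzd6, Fzd8, Lgr5, Sfrp1, Sfrp4, Wnt5a, Wnt7b, Wnt8a, Wnt10a and Znrf3. The median over the 41 windows was 17.0 CG dinucleotides, and over all 32851 windows of the table it was 6.0. The letters CTTTGAT or CTTTGAA, which TCF/LEF factors are known to bind, were searched on both strands. They occurred in 3 of the 41 windows (7.32%), those of Dkk1, Wnt11 and 1 of the 3 starts of Wnt5b, and in 7.48% of all windows. None of the 4 windows printed holds them, which says nothing of binding by these factors.

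Over the first days of differentiation most Wnt genes changed in both genotypes, as did most genes. Tests are edgeR quasi-likelihood F tests with Benjamini-Hochberg adjustment over all 18489 genes tested, and a gene passed at an adjusted p under 0.05. In WT, 34 of the 44 tested members passed at day 2 against day 0 (23 higher, 11 lower), beside 61.5% of all genes tested (32.9% higher, 28.6% lower). At day 4 it was 33 (22 higher, 11 lower) beside 63.2% of all genes (31.9% and 31.2%), and at day 7 it was 36 (28 higher, 8 lower) beside 66.2% (32.9% and 33.2%). In TKO the counts were 30 (19 higher, 11 lower) beside 57.0% (31.5% and 25.5%), 33 (22 higher, 11 lower) beside 63.0% (34.4% and 28.6%), and 36 (27 higher, 9 lower) beside 67.8% (36.1% and 31.7%). The comparisons of a genotype share its day 0 libraries. LIF, the Gsk3 inhibitor, the MEK inhibitor and vitamin C were listed at day 0 only, and Fgf2 and Activin A only later. These changes of medium and the passage of time cannot be told apart. The calls against day 0 named below with an adjusted p held under all alternative settings. These include leaving out each library. Where called genes are said below not to overlap between groups, the same libraries gave the call, so this adds no support.

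Among the ligands, Wnt3a and Wnt11 had fallen by day 4. Wnt3a, a canonical ligand of the streak and tail bud, stood at 0.676 and 0.603 CPM in WT day 0 and 0.06897 and 0.0209 CPM in WT day 4 (log2 fold change -3.69 ± 0.84 (SE), adjusted p = 0.0017). Wnt11, mostly linked to non-canonical signalling, was at 2.298 and 1.36 CPM, then 0.183 and 0.0259 CPM at day 2 (log2 fold change -3.98 ± 0.56 (SE), adjusted p = 3.1e-05) and 6.88 and 6.46 CPM at day 7 (log2 fold change 1.87 ± 0.38 (SE), adjusted p = 6.2e-04 against day 0). Both genes had fallen by day 4 in TKO as well (-3.12 and -2.16, adjusted p = 0.0015 and 0.0012), without overlap between the groups. Over the alternative settings the log2 fold change of Wnt3a to day 4 ran from -4.74 to -3.15 in WT (highest adjusted p = 0.019). In TKO it ran from -4.69 to -2.44 (highest adjusted p = 0.015). That of Wnt11 in TKO ran from -3.48 to -1.53 (highest adjusted p = 0.024). Wnt11 in TKO went from 1.62 and 1.501 CPM at day 0 through 0.0547 and 0.0938 CPM at day 2 to 6.58 and 7.49 CPM at day 7.

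Wnt3, which is needed for the streak, rose by day 7. It was at 1.68 and 1.03 CPM in WT day 0, 2.99 and 3.66 at day 2, 5.36 and 7.46 at day 4 and 15.3 and 15.99 at day 7 (log2 fold change 3.53 ± 0.47 (SE), adjusted p = 3.3e-05, day 7 against day 0). In TKO Wnt3 was at 1.51 and 1.59 CPM at day 0, 1.39 and 0.938 at day 2, 7.25 and 2.05 at day 4 and 50.5 and 48.3 at day 7 (log2 fold change 4.99 ± 0.48 (SE), adjusted p = 1.8e-06). Wnt8a, another canonical ligand of the streak, had 3 counts over both WT day 0 libraries and 3457 over both WT day 4 libraries, a ratio per effective library size of 836 (95% counting interval 286 to 4057); this counting interval and those below cover counting error only, not the gap between the WT day 4 libraries. Its WT levels were 3.61 and 3.61 CPM at day 2, 13.7 and 55.7 CPM at day 4 and 1.88 and 1.399 CPM at day 7. WT thus had its highest Wnt8a at day 4, mostly in replicate 2, and TKO at day 7, with 13.1 and 2.25 CPM at day 4 and 44.1 and 44.6 CPM at day 7.

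Wnt5a, the main non-canonical ligand of the gastrulating embryo, had 2 counts over the WT day 0 libraries and 775 over the WT day 7 libraries, a ratio of 359 (95% counting interval 99.05 to 2970.0). Wnt9a rose by a log2 fold change of 4.28 ± 0.37 (SE) in WT and 3.52 ± 0.37 in TKO by day 7 (adjusted p = 1.7e-07 and 1.3e-06). Wnt9a reached 10.1 and 10.3 CPM in WT day 7 and 6.35 and 6.83 CPM in TKO day 7. Wnt2, Wnt2b, Wnt7a, Wnt7b, Wnt8b and Wnt16 did not exceed 1.16 CPM in any library.

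The Frizzled receptors changed their makeup. By TPM, Fzd10 (36.2 ± 5.56) and Fzd5 (14.2 ± 4.498) led in WT day 0, and Fzd7 and Fzd2 rose within 2 days. Fzd7, a Frizzled long studied in embryonic stem cells, went from 30.2 and 32.8 CPM in WT day 0 to 179 and 172 CPM at day 2 (log2 fold change 2.48 ± 0.11 (SE), adjusted p = 5.0e-10). Fzd2 went from 3.704 and 2.31 CPM to 32.1 and 35.7 CPM at day 2 and 67.2 and 68.2 CPM at day 7 (log2 fold change 4.50 ± 0.17 (SE), adjusted p = 4.3e-11, day 7 against day 0). Fzd10 fell from 86.7 and 90.1 CPM to 9.95 and 8.33 CPM at day 2 (log2 fold change -3.27 ± 0.35 (SE), adjusted p = 8.7e-06). All 3 genes moved the same way in TKO, where Fzd7 reached 158 and 154 CPM and Fzd2 26.6 and 30.6 CPM at day 2 and Fzd10 fell to 10.6 and 11.3 CPM. Fzd1, Fzd3, Fzd4 and Fzd6 were also higher at day 7 than at day 0 in both genotypes, with log2 fold changes of 3.37, 3.50, 0.61 and 2.57 in WT and 4.03, 3.43, 1.44 and 3.79 in TKO (highest adjusted p = 0.0011). Fzd9 fell in both, from 3.84 and 3.22 CPM in WT day 0 to 0.9897 and 0.748 CPM in WT day 7.

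The antagonists had their highest levels on different days. Sfrp2 was highest at day 4, at 35.3 and 36.2 CPM in WT and 48.3 and 38.7 CPM in TKO, and Sfrp4 in TKO at day 2, at 15.5 and 13.7 CPM. Sfrp1, which binds Wnt proteins outside the cell, fell from 81.9 and 86.3 CPM in WT day 0 to 13.2 and 10.8 CPM at day 2 (log2 fold change -2.80 ± 0.22 (SE), adjusted p = 2.6e-07). By day 7 it had risen to 267 and 204 CPM (log2 fold change 1.49 ± 0.21 (SE), adjusted p = 3.3e-05 against day 0). Dkk1, which blocks Lrp5 and Lrp6 and is itself often induced by beta-catenin, was at 0.138 and 0.251 CPM in WT day 4 and 59.9 and 50.4 CPM in WT day 7 (log2 fold change 5.81 ± 0.37 (SE), adjusted p = 2.7e-08, day 7 against day 0). In TKO Dkk1 was at 1.92 and 0.483 CPM at day 4 and 60.1 and 66.6 CPM at day 7 (log2 fold change 5.25 ± 0.36 (SE), adjusted p = 4.2e-08). At day 7 the Dkk1 values of both genotypes lay within 50.4 to 66.6 CPM, and the genotypes were not called different (log2 fold change 0.20 ± 0.27 (SE), adjusted p = 0.58). Dkk3, a Dkk relative that does not act as a typical Wnt blocker, fell from 6.62 and 5.63 CPM in WT day 0 to 1.097 and 1.01 CPM at day 2 (log2 fold change -2.53 ± 0.23 (SE), adjusted p = 4.0e-07), and Dkk2 stayed at or under 0.575 CPM in all libraries.

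Lef1 showed the steepest early rise of the TCF/LEF factors. It stood at 4.84 and 4.92 CPM in WT day 0, 154 and 161 CPM at day 2 (log2 fold change 5.01 ± 0.11 (SE), adjusted p = 1.6e-12), 37.97 and 32.6 CPM at day 4 and 27.5 and 24.7 CPM at day 7. In TKO it went from 2.42 and 1.96 to 114 and 123 CPM at day 2 (log2 fold change 5.76 ± 0.12 (SE), adjusted p = 2.4e-12), then to 45.2 and 47.2 CPM at day 4 and 62.9 and 60.8 CPM at day 7. The day 2 libraries were the highest in both genotypes, with no overlap with any other day. Tcf7 varied less, between 58.2 and 121 CPM over all 16 libraries, and Tcf7l1, known mainly as a repressor of naive genes, between 44.7 and 119 CPM. Tcf7l2 rose in WT from 5.27 and 5.099 CPM at day 0 to 35.5 and 29.9 CPM at day 7 (log2 fold change 2.66 ± 0.13 (SE), adjusted p = 5.1e-10).

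Axin2 and Rnf43, negative regulators that beta-catenin induces, dropped within 2 days. Axin2, part of the destruction complex, went from 87.1 and 104 CPM in WT day 0 to 6.78 and 7.45 CPM at day 2 (log2 fold change -3.75 ± 0.16 (SE), adjusted p = 3.2e-10) and from 101 and 103 to 8.97 and 9.52 CPM in TKO (log2 fold change -3.47 ± 0.16 (SE), adjusted p = 6.2e-10). Rnf43, a ubiquitin ligase that removes Frizzled from the surface, went from 9.002 and 10.1 to 0.223 and 0.259 CPM in WT (log2 fold change -5.30 ± 0.36 (SE), adjusted p = 2.1e-08) and from 11.02 and 10.4 to 0.0273 and 0.188 CPM in TKO (log2 fold change -6.53 ± 0.40 (SE), adjusted p = 9.3e-09). Nkd1, a feedback inhibitor acting on Dishevelled, did the reverse and rose from 3.62 and 3.49 CPM in WT day 0 to 14.2 and 14.1 CPM in WT day 7 (log2 fold change 1.99 ± 0.14 (SE), adjusted p = 2.1e-08). Genes of the same feedback class thus went in opposite directions while naive genes fell. Lgr5, a receptor for R-spondins, was at or under 0.934 CPM before day 4 and at 13.8 and 10.9 CPM in WT day 7 (log2 fold change 4.80 ± 0.31 (SE), adjusted p = 8.1e-09). Znrf3, the close relative of Rnf43, kept between 17.3 and 30.7 CPM in all libraries and fell slightly in WT by day 7 (log2 fold change -0.66 ± 0.11 (SE), adjusted p = 7.8e-05).

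**Figure D3:**
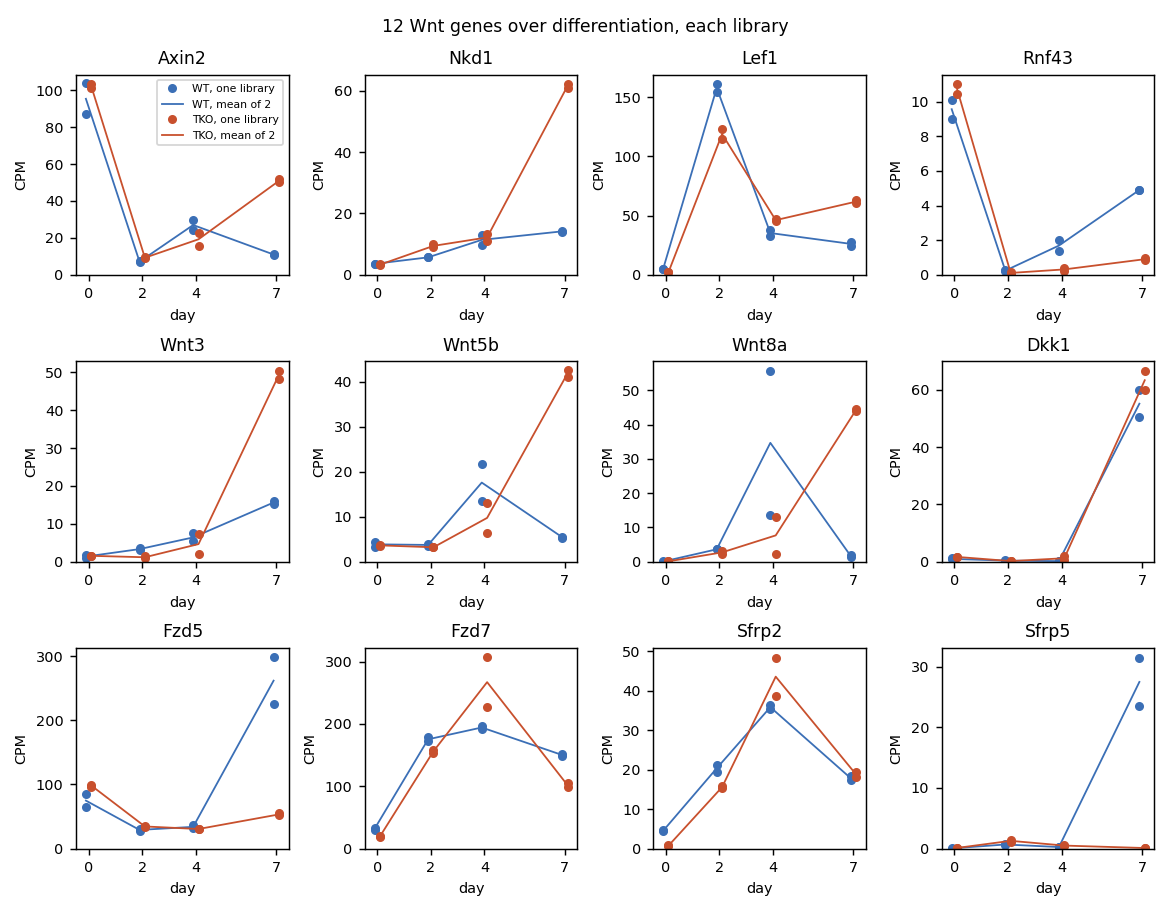
CPM of 12 Wnt genes against day of differentiation, each panel on its own linear axis from 0; points are single libraries and lines join the means of 2 libraries, WT in blue and TKO in red. Axin2 and Rnf43 drop by day 2 and Lef1 peaks there, and at day 7 Axin2, Nkd1, Wnt3, Wnt5b and Wnt8a are higher in TKO while Fzd5, Rnf43 and Sfrp5 are higher in WT.

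At day 7 TKO cells had more RNA of the streak ligands and of several feedback genes than WT cells, and less Sfrp5, Fzd5 and Rnf43. Of the 44 tested members 29 passed (65.9%), 19 higher and 10 lower in TKO, beside 44.5% of all genes tested (23.4% higher and 21.1% lower). The median log2 fold change was 0.42 over the tested members and 0.0026 over all genes tested. Under all 11 alternative settings of the test 23 of the 29 kept their call. Dkk3, Fzd8, Fzd9, Lgr5 and Wnt3a each lost it when 1 library was left out and Fzd6 lost it with effective transcript lengths in the fit (adjusted p = 0.070). Among the roles, 8 of 18 tested ligands were higher and 2 lower, 4 of 10 Frizzled receptors were higher and 3 lower, and 4 of 5 feedback genes were higher and 1 lower.

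Wnt3 was at 15.3 and 15.99 CPM in WT day 7 and 50.5 and 48.3 CPM in TKO day 7 (log2 fold change 1.66 ± 0.38 (SE), adjusted p = 0.0043). Wnt5b, a relative of Wnt5a, was at 5.36 and 5.52 CPM in WT and 41.2 and 42.6 CPM in TKO (log2 fold change 2.94 ± 0.29 (SE), adjusted p = 4.7e-06). Wnt8a was at 1.88 and 1.399 CPM in WT and 44.1 and 44.6 CPM in TKO (log2 fold change 4.75 ± 0.84 (SE), adjusted p = 0.0012). For all 3 ligands both TKO libraries stood at least 3-fold above both WT libraries. Wnt5a was higher as well, at 9.63 and 9.07 CPM in WT and 27.1 and 21.1 CPM in TKO (log2 fold change 1.37 ± 0.23 (SE), adjusted p = 3.0e-04). By TPM the order in TKO day 7 was Wnt8a (47.9 ± 0.795), Wnt5b (35.2 ± 1.19), Wnt3 (28.7 ± 0.635) and Wnt5a (10.4 ± 0.356), with gaps wider than these SDs. In WT day 7 the order was Wnt3 (8.16 ± 0.336), Wnt11 (6.44 ± 0.0246), Wnt9a (4.92 ± 0.0989) and Wnt5b (4.14 ± 0.109).

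Ligands under 1 CPM in WT at day 7 were among those higher in TKO. Wnt6, whose promoter window is printed above, was at 0.0241 and 0.193 CPM in WT and 8.83 and 7.71 CPM in TKO (log2 fold change 6.21 ± 0.47 (SE), adjusted p = 2.5e-07). Wnt10a was at 0.0483 and 0.0241 CPM in WT and 1.98 and 1.79 CPM in TKO, from 3 and 134 counts, a ratio per effective library size of 52.1 (95% counting interval 17.4 to 256). Wnt9b was at 0.4104 and 0.651 CPM in WT and 2.21 and 2.15 CPM in TKO (log2 fold change 2.03 ± 0.43 (SE), adjusted p = 0.0018). These 3 differences went the same way with no overlap of the groups. Wnt3a was at 0.0483 and 0 CPM in WT and 0.259 and 0.689 CPM in TKO, from 2 and 34 counts, a ratio of 19.8 (95% counting interval 5.08 to 170.3), and its call was lost without WT day 7 replicate 2 (adjusted p = 0.052) or TKO day 7 replicate 2 (adjusted p = 0.067). Wnt4 and Wnt10b were lower in TKO: Wnt4 was at 5.29 and 5.93 CPM in WT and 0.9199 and 0.854 CPM in TKO (log2 fold change -2.66 ± 0.35 (SE), adjusted p = 3.9e-05). Wnt10b was at 1.11 and 1.98 CPM in WT and 0.172 and 0.1102 CPM in TKO (log2 fold change -3.43 ± 0.60 (SE), adjusted p = 5.4e-04).

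Of the 46 genes, 4 pairs lie within 100 kb of each other, all of them ligands (GENCODE vM21, GRCm38). Wnt6 (chr1:74771892-74785322, +) and Wnt10a (chr1:74791516-74804179, +) are 6.2 kb apart, and both were higher in TKO at day 7. Wnt9b (chr11:103727364-103749821, −) and Wnt3 (chr11:103774150-103817957, +) are 24.3 kb apart, and both were higher too. The pair Wnt3a and Wnt9a, 16.2 kb apart, did not move alike: Wnt9a was at 10.1 and 10.3 CPM in WT and 6.35 and 6.83 CPM in TKO and did not pass (log2 fold change -0.63 ± 0.29 (SE), adjusted p = 0.093), although it was lower in TKO with only the day 7 libraries in the fit (adjusted p = 3.7e-04). Of the pair Wnt10b and Wnt1, 11.7 kb apart, Wnt1 had 4 counts in WT day 7 and none in TKO day 7. The genomic neighbours were not tested as pairs.

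Of the Frizzled receptors at day 7, Fzd5, a receptor with roles in the yolk sac and eye, differed most. It was at 299 and 225 CPM in WT and 54.7 and 51.8 CPM in TKO (log2 fold change -2.30 ± 0.14 (SE), adjusted p = 3.9e-08). Fzd10 was at 20.8 and 22.7 CPM in WT and 78.7 and 80.7 CPM in TKO (log2 fold change 1.87 ± 0.33 (SE), adjusted p = 8.3e-04). WT cells were thus high for Fzd5 and TKO cells for Fzd10, without overlap. Fzd7 was lower in TKO, at 151 and 149 CPM in WT and 105 and 98.7 CPM in TKO (log2 fold change -0.56 ± 0.11 (SE), adjusted p = 8.4e-04). Fzd1 was at 5.46 and 4.29 CPM in WT and 9.66 and 11.02 CPM in TKO (log2 fold change 1.08 ± 0.24 (SE), adjusted p = 0.0026), and Fzd6 at 17.02 and 16.1 CPM in WT and 25.5 and 27.3 CPM in TKO (log2 fold change 0.67 ± 0.15 (SE), adjusted p = 0.0026). The calls of Fzd8 and Fzd9 did not hold under all alternative settings. Fzd8 was at 34.6 and 27.4 CPM in WT and 21.3 and 24.1 CPM in TKO (log2 fold change -0.45 ± 0.14 (SE), adjusted p = 0.017), with adjusted p = 0.14 without WT day 7 replicate 1 and 0.089 without TKO day 7 replicate 1. Fzd9 was at 0.9897 and 0.748 CPM in WT and 1.67 and 1.79 CPM in TKO (log2 fold change 0.99 ± 0.24 (SE), adjusted p = 0.0045), with adjusted p = 0.062 without WT day 7 replicate 2. Fzd2, Fzd3 and Fzd4 did not pass, with log2 fold changes of -0.26, -0.22 and 0.01; with only the day 7 libraries in the fit Fzd2 and Fzd3 passed as lower (adjusted p = 0.0013 and 0.0081).

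Sfrp5, a secreted Frizzled-related antagonist of the visceral endoderm, had the largest fold difference of any member at day 7. It was at 31.5 and 23.5 CPM in WT and 0.0862 and 0.0826 CPM in TKO (log2 fold change -8.30 ± 0.37 (SE), adjusted p = 2.5e-09), from 2281 and 6 counts. TKO day 7 against TKO day 0 did not pass (0.114 and 0.0866 CPM at day 0, log2 fold change -0.24 ± 0.71 (SE), adjusted p = 0.80), whereas WT had 2 counts at day 0 and rose by a ratio of 1057 (95% counting interval 292 to 8730.0). Of 7 endoderm markers 3 were higher and 2 lower in TKO, beside 23.4% of all genes tested higher and 21.1% lower. The higher ones were Afp, Dab2 and Foxa2, with Afp at 0 in both WT libraries. The lower ones were Sox17 and Gata4. Sox17 was at 40.8 and 29.2 CPM in WT day 7 and 4.398 and 5.04 CPM in TKO day 7. Gata4 was at 28.3 and 19.6 CPM in WT and 5.78 and 5.87 CPM in TKO. The 7 markers summed to 139 and 105 CPM in WT and 126 and 144 CPM in TKO. Their part in the Sfrp5 result was not tested. Sfrp4 was also lower in TKO, at 3.67 and 4.03 CPM in WT and 1.696 and 1.74 CPM in TKO (log2 fold change -1.16 ± 0.19 (SE), adjusted p = 3.0e-04). Sfrp1 did not pass at 267 and 204 CPM in WT and 179 and 169 CPM in TKO (log2 fold change -0.44 ± 0.20 (SE), adjusted p = 0.097), nor did Sfrp2 at 18.3 and 17.3 CPM in WT and 19.3 and 18.2 CPM in TKO (log2 fold change 0.07 ± 0.12 (SE), adjusted p = 0.64). Dkk3 was at 1.81 and 1.47 CPM in WT and 2.82 and 3.196 CPM in TKO (log2 fold change 0.87 ± 0.22 (SE), adjusted p = 0.0062), and its call was lost without replicate 2 of WT (adjusted p = 0.075) or of TKO (adjusted p = 0.056).

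The TCF/LEF factors divided at day 7 into 2 that were higher in TKO and 2 that were lower. Lef1, which mostly activates targets with beta-catenin, was at 27.5 and 24.7 CPM in WT and 62.9 and 60.8 CPM in TKO (log2 fold change 1.24 ± 0.09 (SE), adjusted p = 2.9e-07). Tcf7 was at 58.2 and 61.4 CPM in WT and 78.02 and 76.6 CPM in TKO (log2 fold change 0.37 ± 0.07 (SE), adjusted p = 6.9e-04). Tcf7l1 was at 95.4 and 93.1 CPM in WT and 54.4 and 52.7 CPM in TKO (log2 fold change -0.82 ± 0.19 (SE), adjusted p = 0.0041). Tcf7l1 and Tcf7l2 were the lower pair, and Tcf7l2 was at 35.5 and 29.9 CPM in WT and 10.3 and 11.02 CPM in TKO (log2 fold change -1.62 ± 0.12 (SE), adjusted p = 2.7e-07). By TPM Tcf7 was at 59.3 ± 0.225, Tcf7l1 at 37.1 ± 1.199 and Lef1 at 34.4 ± 0.207 in TKO day 7. In WT day 7 Tcf7l1 led at 57.4 ± 0.837 TPM, with Tcf7 at 41.2 ± 1.79, Tcf7l2 at 17.8 ± 1.98 and Lef1 at 12.8 ± 0.774 TPM.

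The feedback genes Axin2 and Nkd1 were higher in TKO at day 7 and Rnf43 was lower. Axin2 was at 10.7 and 11.3 CPM in WT and 50.05 and 51.8 CPM in TKO (log2 fold change 2.21 ± 0.16 (SE), adjusted p = 1.4e-07). Nkd1 was at 14.2 and 14.1 CPM in WT and 60.8 and 62.3 CPM in TKO (log2 fold change 2.12 ± 0.13 (SE), adjusted p = 3.1e-08). Rnf43 was at 4.88 and 4.92 CPM in WT and 0.949 and 0.854 CPM in TKO (log2 fold change -2.44 ± 0.31 (SE), adjusted p = 2.7e-05). Both TKO libraries stood over 4-fold above both WT libraries for Axin2 and Nkd1, and the reverse held for Rnf43. Znrf3 was at 17.3 and 17.7 CPM in WT and 24.7 and 24.2 CPM in TKO (log2 fold change 0.49 ± 0.11 (SE), adjusted p = 0.0021). Lgr5 was at 13.8 and 10.9 CPM in WT and 23.2 and 25.7 CPM in TKO (log2 fold change 0.98 ± 0.23 (SE), adjusted p = 0.0030), with adjusted p = 0.055 without WT day 7 replicate 2.

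**Figure D4:**
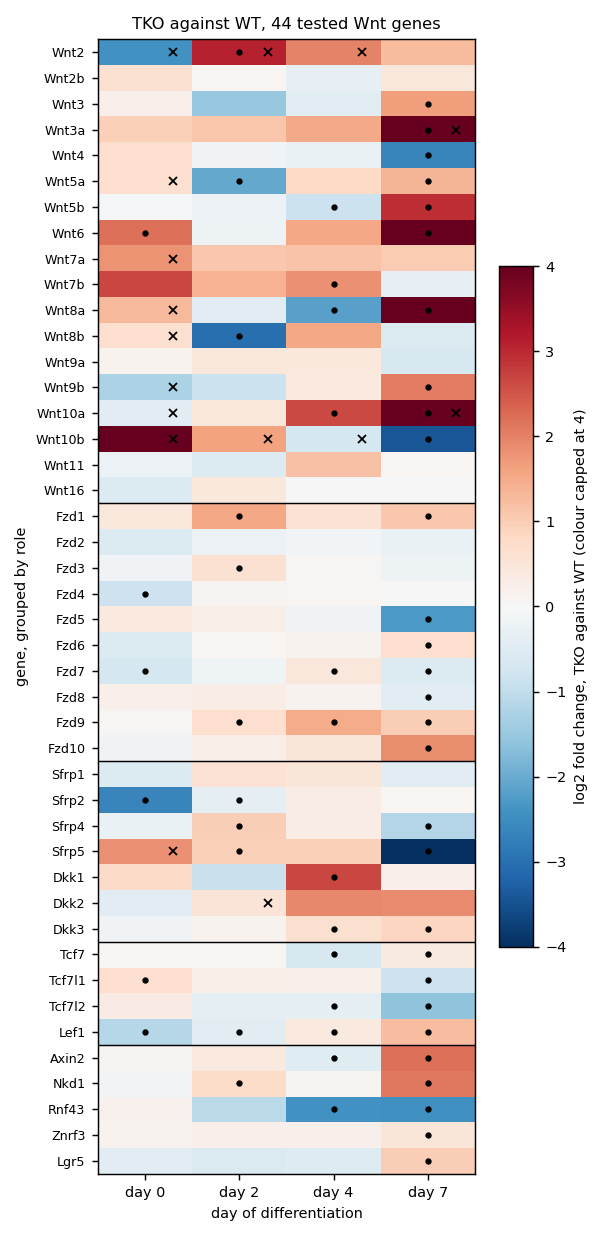
Log2 fold change of TKO against WT (colour, red higher and blue lower in TKO, capped at 4) for the 44 tested Wnt genes on each day. Dots mark genes that passed at an adjusted p under 0.05 and crosses mark genes with 3 or fewer counts in 1 of the groups, whose fitted fold change is no estimate of size; the dots number 6, 11, 13 and 29 from day 0 to day 7.

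The other genes of the pathway were split between the directions at day 7. Of 57 listed components outside the members, 56 were tested and at day 7 13 were higher and 12 lower in TKO, with a median log2 fold change of 0.02. Over all genes tested 23.4% were higher and 21.1% lower, so the share called was near the background. Ctnnb1, which encodes beta-catenin, was at 1089 and 1017 CPM in WT and 900.5 and 877 CPM in TKO (log2 fold change -0.25 ± 0.08 (SE), adjusted p = 0.018). Its call was lost without WT day 7 replicate 1 (adjusted p = 0.072) or TKO day 7 replicate 2 (adjusted p = 0.058). Gsk3b, Lrp6, Porcn and Wls, the last 2 needed to modify and secrete Wnt proteins, did not pass, with log2 fold changes of 0.03 ± 0.11, -0.05 ± 0.17, 0.17 ± 0.35 and 0.01 ± 0.13 (SE). The lowest adjusted p among the higher components were those of Nkd2, a relative of Nkd1 (1.87), Ptk7, a co-receptor (0.76), and Sostdc1, a secreted antagonist (5.35; adjusted p = 1.9e-07, 4.3e-06 and 1.5e-05). Among the lower components they were those of the planar polarity cadherins Celsr3 (-1.70) and Celsr2 (-1.47) and of the signal transducer Dvl1 (-0.47; adjusted p = 4.5e-06, 2.3e-04 and 7.0e-04). At days 0, 2 and 4 the list had 5, 4 and 13 higher and 1, 1 and 11 lower genes. Over all genes tested 12.7%, 13.4% and 28.9% were called (4.52%, 7.91% and 17.8% higher, 8.16%, 5.52% and 11.1% lower).

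Genes often reported as induced by beta-catenin moved with the members at day 7. Of 20 such genes outside the members, 16 were higher and 2 lower in TKO. Of all genes tested 44.5% were called, 23.4% higher and 21.1% lower. The median log2 fold change was 1.60 over the list and 0.0026 over all genes tested. Sp5, a transcription factor and direct target, was at 1.54 and 1.57 CPM in WT and 20.7 and 23.1 CPM in TKO (log2 fold change 3.81 ± 0.26 (SE), adjusted p = 1.3e-07). T, the streak and mesoderm factor brachyury, was at 51.6 and 42.9 CPM in WT and 516 and 527 CPM in TKO (log2 fold change 3.46 ± 0.60 (SE), adjusted p = 0.0012). Cdx1 had no counts in WT and was at 1.03 and 1.13 CPM in TKO, at least 29.9-fold higher relative to a floor of 3 counts for the group. Mixl1 and Cdx2 had the other lowest adjusted p among the higher genes, with log2 fold changes of 3.55 and 4.84 (adjusted p = 5.2e-08 and 5.6e-07). The 2 lower genes were Ascl2 (-2.26, adjusted p = 5.0e-04) and Msx2 (-1.32, adjusted p = 0.0066). At days 0, 2 and 4 the same list had 3, 1 and 6 higher and 2, 1 and 1 lower genes, with medians of 0.07, −0.12 and 0.14. The shares called over all genes tested were 12.7%, 13.4% and 28.9% on these days. Split by direction, they were 4.52%, 7.91% and 17.8% higher and 8.16%, 5.52% and 11.1% lower.

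That list overlaps the markers of primitive streak and mesoderm, which also moved at day 7. Of 10 streak and mesoderm markers 9 were tested, 7 were higher in TKO and none lower. For this list and those below, the background over all genes tested was 23.4% higher and 21.1% lower. The 10 streak markers summed to 379 and 289 CPM in WT and 1108 and 1151 CPM in TKO. Mesp1 was at 0 in WT day 7 replicate 2, and T, Mixl1, Evx1 and Fgf8 stand in both lists. Notum stands in the component list as well as the beta-catenin list, and Cdx2 among the trophoblast markers. Dnmt3b, a gene read here as lost in TKO, stands among the formative markers and was 1 of the 3 lower ones. The formative sums given next include it. Other markers moved less evenly: of 7 formative markers 1 was higher and 3 lower (1733 and 1602 CPM in WT, 1075 and 1059 CPM in TKO), of 5 core pluripotency genes none was higher and 4 were lower (1841 and 1866 CPM in WT and 1251 and 1225 CPM in TKO), and of 10 naive genes 5 were higher and 2 lower (39.7 and 37.1 CPM in WT and 42.7 and 46.4 CPM in TKO). Of 7 neural markers 5 were tested, with 1 higher and 2 lower (424 and 491 CPM in WT and 458 and 445 CPM in TKO). Trophoblast markers (6 genes, 1 higher and 1 lower) summed to 40.96 and 37.1 CPM in WT and 30.01 and 36.1 CPM in TKO, and fibroblast markers (8 genes, 6 tested, 1 higher and none lower) to 38.7 and 30.5 CPM in WT and 31.1 and 29.6 CPM in TKO. At day 7 the streak markers moved in the same direction as most called ligands, Axin2, Nkd1 and Lef1. The core markers moved in the opposite direction. The part of either list in those results was not tested.

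At day 0, in the medium with the Gsk3 inhibitor, 6 Wnt genes passed between the genotypes, a share near the background. These were 13.6% of the 44 tested, 2 higher and 4 lower in TKO, beside 12.7% of all genes tested (4.52% higher and 8.16% lower), with a median log2 fold change of 0.07 over the members and −0.03 over all genes. Sfrp2 was at 4.596 and 4.37 CPM in WT and 0.854 and 0.577 CPM in TKO (log2 fold change -2.64 ± 0.18 (SE), adjusted p = 2.4e-06), and this was the 1 call of day 0 that held under all alternative settings. Lef1 was at 4.84 and 4.92 CPM in WT and 2.42 and 1.96 CPM in TKO (log2 fold change -1.15 ± 0.13 (SE), adjusted p = 1.2e-04). Fzd7 was at 30.2 and 32.8 CPM in WT and 19.4 and 19.1 CPM in TKO (log2 fold change -0.71 ± 0.11 (SE), adjusted p = 0.0015), and Fzd4 at 5.11 and 6.25 CPM in WT and 3.22 and 3.204 CPM in TKO (log2 fold change -0.82 ± 0.14 (SE), adjusted p = 0.0025). These 4 genes were lower in both TKO libraries than in both WT libraries. Tcf7l1 was higher, at 55.2 and 59.3 CPM in WT and 91.2 and 89.5 CPM in TKO (log2 fold change 0.66 ± 0.19 (SE), adjusted p = 0.042), and Wnt6 was at 0.135 and 0.151 CPM in WT and 0.626 and 0.722 CPM in TKO (log2 fold change 2.21 ± 0.52 (SE), adjusted p = 0.014). The call of Tcf7l1 was lost without any 1 of the 4 libraries of day 0 (adjusted p from 0.093 to 0.24), and that of Wnt6 without WT replicate 1 or either TKO library (adjusted p from 0.065 to 0.093). Axin2 did not pass at day 0 (87.1 and 104 CPM in WT, 101 and 103 CPM in TKO, log2 fold change 0.10 ± 0.14 (SE), adjusted p = 0.71). With only the 4 day 0 libraries in the fit Fzd4, Fzd7 and Lef1 did not pass (adjusted p = 0.084, 0.050 and 0.050). Without WT day 0 replicate 2, Fzd2, Fzd5 and Znrf3 passed as well (adjusted p = 0.0047, 0.0071 and 0.036).

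At day 2, 11 members passed (25.0% of those tested), 7 higher and 4 lower in TKO, beside 13.4% of all genes tested (7.91% higher and 5.52% lower), with medians of 0.18 and −0.01. Fzd1 was at 1.28 and 1.48 CPM in WT and 4.10 and 3.94 CPM in TKO (log2 fold change 1.55 ± 0.27 (SE), adjusted p = 0.0028), and Sfrp4 at 7.82 and 7.004 CPM in WT and 15.5 and 13.7 CPM in TKO (log2 fold change 0.97 ± 0.17 (SE), adjusted p = 0.0026). These 2 kept their call under all alternative settings. Nkd1 was at 5.73 and 5.66 CPM in WT and 8.94 and 9.92 CPM in TKO (log2 fold change 0.73 ± 0.13 (SE), adjusted p = 0.0039), lost without TKO day 2 replicate 2 (adjusted p = 0.057). Fzd3 was at 16.3 and 13.6 CPM in WT and 22.4 and 23.1 CPM in TKO (log2 fold change 0.60 ± 0.15 (SE), adjusted p = 0.021), and Fzd9 at 4.04 and 4.72 CPM in WT and 6.998 and 7.06 CPM in TKO (log2 fold change 0.68 ± 0.20 (SE), adjusted p = 0.038). All 5 of these genes were higher in both TKO libraries. Sfrp5 was at 0.609 and 0.726 CPM in WT and 1.07 and 1.48 CPM in TKO (log2 fold change 0.94 ± 0.29 (SE), adjusted p = 0.049), the opposite direction to day 7. Wnt2 was at 0.0406 and 0 CPM in WT and 0.137 and 0.281 CPM in TKO, from 2 and 17 counts, a ratio of 9.42 (95% counting interval 2.24 to 84.1).

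The 4 genes lower in TKO at day 2 were Lef1, Sfrp2, Wnt5a and Wnt8b. Lef1 was at 154 and 161 CPM in WT and 114 and 123 CPM in TKO (log2 fold change -0.41 ± 0.09 (SE), adjusted p = 0.011). Sfrp2 was at 19.4 and 21.3 CPM in WT and 15.2 and 15.9 CPM in TKO (log2 fold change -0.38 ± 0.12 (SE), adjusted p = 0.046). Wnt5a was at 0.711 and 0.545 CPM in WT and 0.219 and 0.0938 CPM in TKO (log2 fold change -2.04 ± 0.44 (SE), adjusted p = 0.0094). Both ligands of the 4 were under 1 CPM, and Wnt8b was at 0.447 and 0.415 CPM in WT and 0.0820 and 0.0235 CPM in TKO (log2 fold change -3.01 ± 0.89 (SE), adjusted p = 0.040). Leaving out 1 library of day 2 left fewer members called, with no share over all genes given beside it. Fzd9, Sfrp2, Sfrp5, Wnt2 and Wnt8b lost their call without any 1 of the 4 libraries (adjusted p from 0.055 to 0.35). Fzd3 and Lef1 lost theirs without WT replicate 2 or either TKO library, and Wnt5a without WT replicate 1 or TKO replicate 2 (adjusted p from 0.050 to 0.19).

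At day 4, 13 members passed (29.5% of those tested), 7 higher and 6 lower in TKO, beside 28.9% of all genes tested (17.8% higher and 11.1% lower), a share near the background, with medians of 0.28 and 0.01. The calls that held under all alternative settings were those of Rnf43, Tcf7, Fzd9 and Wnt10a. Rnf43 was at 2.02 and 1.36 CPM in WT and 0.417 and 0.207 CPM in TKO (log2 fold change -2.42 ± 0.35 (SE), adjusted p = 2.3e-04), and Tcf7 at 113 and 121 CPM in WT and 73.8 and 77.9 CPM in TKO (log2 fold change -0.63 ± 0.07 (SE), adjusted p = 2.1e-05). Fzd9 was at 0.879 and 1.11 CPM in WT and 3.25 and 2.299 CPM in TKO (log2 fold change 1.49 ± 0.22 (SE), adjusted p = 2.7e-04), and Wnt10a at 0.0517 and 0.0209 CPM in WT and 0.271 and 0.2299 CPM in TKO (log2 fold change 2.64 ± 0.53 (SE), adjusted p = 0.0024). The first pair was lower and the second pair higher in both TKO libraries. Dkk1 was at 0.138 and 0.251 CPM in WT and 1.92 and 0.483 CPM in TKO (log2 fold change 2.67 ± 0.57 (SE), adjusted p = 0.0044); with only the 4 day 4 libraries in the fit its adjusted p was 0.069.

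The remaining calls of day 4 were each lost without at least 1 of the 4 libraries. The genotypes did not overlap in any of these genes, but for Wnt8a and Wnt5b the nearest WT and TKO libraries were almost level. The same libraries gave the calls, so this adds no support. Wnt8a was at 13.7 and 55.7 CPM in WT and 13.1 and 2.25 CPM in TKO (log2 fold change -2.16 ± 0.71 (SE), adjusted p = 0.045), with adjusted p = 0.41 without WT replicate 2 and 0.15 without TKO replicate 2. Wnt5b was at 13.4 and 21.8 CPM in WT and 13.02 and 6.46 CPM in TKO (log2 fold change -0.85 ± 0.27 (SE), adjusted p = 0.033), with 0.29 and 0.20 without the same libraries. Axin2 was at 24.5 and 29.5 CPM in WT and 22.9 and 15.6 CPM in TKO (log2 fold change -0.48 ± 0.15 (SE), adjusted p = 0.025), with 0.19 and 0.22 likewise. In all 3 genes WT replicate 2 was the highest and TKO replicate 2 the lowest of the 4 libraries, and WT replicate 1 and TKO replicate 1 were close. Lef1 was at 37.97 and 32.6 CPM in WT and 45.2 and 47.2 CPM in TKO (log2 fold change 0.39 ± 0.09 (SE), adjusted p = 0.0069; 0.28 with adjusted p = 0.077 without WT replicate 2), and Fzd7 at 197 and 192 CPM in WT and 227 and 307 CPM in TKO (log2 fold change 0.46 ± 0.11 (SE), adjusted p = 0.0058; 0.22 with adjusted p = 0.074 without TKO replicate 2). Dkk3 was at 2.603 and 2.88 CPM in WT and 3.42 and 5.196 CPM in TKO (log2 fold change 0.65 ± 0.21 (SE), adjusted p = 0.032), Tcf7l2 at 9.21 and 9.05 CPM in WT and 6.75 and 7.15 CPM in TKO (log2 fold change -0.39 ± 0.12 (SE), adjusted p = 0.029), and Wnt7b at 0.328 and 0.0418 CPM in WT and 0.771 and 0.621 CPM in TKO (log2 fold change 1.84 ± 0.64 (SE), adjusted p = 0.047). Each of these last 3 lost its call when any of 3 libraries or more was left out (adjusted p up to 0.31, 0.11 and 0.24, with log2 fold changes then of 0.31, -0.36 and 1.08). Without WT replicate 2 Fzd10 passed as higher in TKO (1.38, adjusted p = 5.6e-05), and without WT replicate 1 so did Fzd1 (1.15, adjusted p = 0.0037). Sfrp4 and Wnt9a also passed without WT replicate 1, Dkk2, Tcf7l1, Wnt3 and Wnt6 without TKO replicate 1, and Sfrp1, Sfrp2, Wnt7a, Wnt8b and Wnt11 without TKO replicate 2 (adjusted p from 8.3e-04 to 0.044).

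Streak markers were uneven among the 4 libraries of day 4. Of the 9 tested, Lhx1 was higher in TKO and Fgf8 and Eomes were lower. T was at 3.81 and 15.1 CPM in WT and 5.71 and 1.03 CPM in TKO, and Eomes at 5.66 and 13.3 CPM in WT and 5.38 and 2.62 CPM in TKO, replicate 1 given before replicate 2. The sum of the 10 streak markers was 20.5 and 59.9 CPM in WT and 24.5 and 13.2 CPM in TKO, with Mesp1 at 0 in 3 of the 4 libraries and Msgn1 at 0 in 3. WT replicate 2 was highest and TKO replicate 2 lowest for T, Eomes and this sum, as for Wnt8a, Wnt5b, Wnt3 and Axin2. Lhx1 had the opposite direction, at 0.103 and 0.125 CPM in WT and 4.96 and 0.713 CPM in TKO (log2 fold change 4.63 ± 0.97 (SE), adjusted p = 0.0052). Fgf8 was at 8.55 and 28.3 CPM in WT and 5.17 and 6.76 CPM in TKO. The call of Fgf8 was lost without WT replicate 2 (adjusted p = 0.090) or TKO replicate 1 (0.099). The call of Eomes was lost without WT replicate 2 (0.25) or TKO replicate 2 (0.16). Their part in the day 4 results was not tested. Of the other lists at day 4, 7 of 10 naive genes were higher in TKO and none lower (43.3 and 46.6 CPM in WT, 115 and 72.4 CPM in TKO). Among 7 endoderm markers 4 were higher and 1 lower (14.8 and 22.4 CPM in WT and 39.9 and 14.2 CPM in TKO). The endoderm sum of TKO replicate 2 lay under both WT sums. Beside these day 4 lists, 17.8% of all genes tested were higher in TKO and 11.1% lower.

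**Figure D5:**
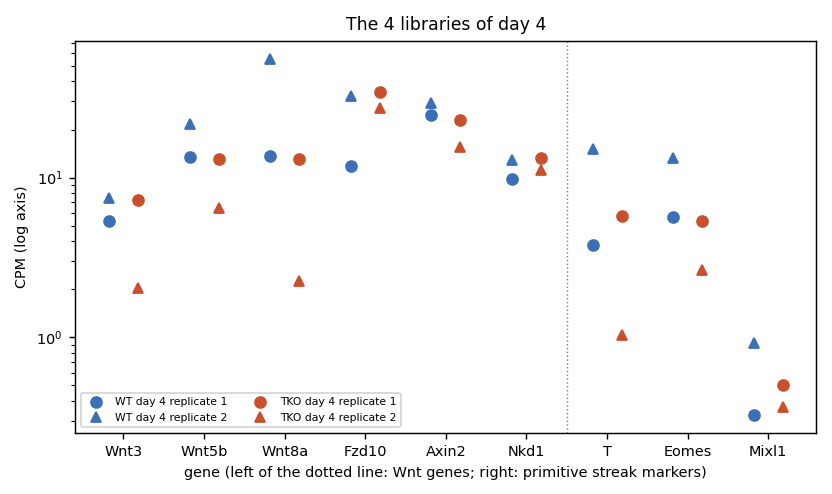
CPM on a log axis of 6 Wnt genes and 3 primitive streak markers in the 4 libraries of day 4; circles are replicate 1 and triangles replicate 2, WT in blue and TKO in red. For Wnt8a the libraries span 2.25 to 55.7 CPM, with the WT triangle highest and the TKO triangle lowest, and T shows the same order of these 2 libraries.

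Whether the genotype difference itself changed with time was tested as the change of the log2 fold change of TKO against WT from day 0 to each later day. To day 2, 8 members passed, 6 positive and 2 negative, beside 7.56% of all genes tested (5.76% positive and 1.80% negative). To day 4, 9 passed, 6 positive and 3 negative, beside 16.3% (11.6% and 4.67%), and to day 7, 23 passed, 14 positive and 9 negative, beside 27.1% (15.8% and 11.3%). Sfrp2 changed on all 3 days from its lower level in TKO at day 0, by 2.26 ± 0.22, 2.92 ± 0.22 and 2.71 ± 0.22 (SE; adjusted p = 1.2e-04, 1.6e-06 and 1.2e-06). Lef1 changed on all 3 days too, from lower in TKO at days 0 and 2 to higher at days 4 and 7. Its changes were 0.75 ± 0.16, 1.54 ± 0.16 and 2.40 ± 0.16 (adjusted p = 0.013, 2.5e-05 and 1.7e-07). The Lef1 call to day 2 did not hold under all alternative settings, whereas those to days 4 and 7 did. For Axin2, Nkd1 and Wnt5b the change to day 7 was 2.11 ± 0.21, 2.23 ± 0.20 and 3.03 ± 0.42 (adjusted p = 7.1e-06, 2.5e-06 and 1.8e-04). Wnt3 and Wnt8a did not pass this test (adjusted p = 0.13 and 0.66), although both were called at day 7. The change was 1.46 ± 0.67 for Wnt3, while Wnt8a had only 3 counts in WT and 7 in TKO at day 0, too few for an estimate of size. Fzd1, Fzd7, Wnt3a, Wnt5a, Wnt9b and Znrf3 were also called at day 7 and did not pass this test. Wnt3, Wnt8a and the genes just named are thus not shown to differ in their genotype effect between day 0 and day 7.

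Lef1 reads were assigned mostly to 2 transcripts. Lef1-202 (3398 bases) and Lef1-204 (3357 bases) are both protein-coding and together held most of the Lef1 TPM at days 2, 4 and 7. At day 7 Lef1-202 held 44% and 43.9% of it in the WT libraries and 60.2% and 62.2% in the TKO libraries, and Lef1-204 held 46.03% and 42.96% in WT and 26.5% and 20.2% in TKO. Lef1-202 was above Lef1-204 in both genotypes at day 2, with 57.2% and 57.8% in WT and 67.7% and 64.9% in TKO. At day 4 its share was 24.2% and 37.1% in WT and 45.7% and 52.1% in TKO. The TKO shares lay above the WT shares on days 2, 4 and 7 without overlap; these shares were not tested, and assignment of reads to such similar transcripts is an estimate of the authors' software.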

How the data were processed

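Poly(A) RNA libraries were stranded, per the labels' protocols. For every transcript the deposited tables give estimated counts (expected counts, unscaled), TPM and, as another kind of value, the effective length, per the file headers. The tool was kallisto and the builds named were GRCm38 and mm10, per the submitters' processing notes; the kallisto version and the annotation are not given in the sources used here.

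Of 119414 transcripts 97.8% matched GENCODE vM21 (GRCm38) by identifier; unmatched ones held at most 1.05% of a library's counts. Estimated counts were summed per gene, rounded and analysed by robust quasi-likelihood fits in edgeR 4.0.16 (R 4.3.3, TMM scaling, filterByExpr by group), with 1 mean for each of 8 groups over 16 libraries leaving 8 residual degrees of freedom; 18489 genes passed the filter. Standard errors are |log2 fold change| divided by the root of F. Contrasts compared the genotypes on each day, days 2, 4 and 7 with day 0 within a genotype, and the genotype difference with that at day 0. Groups with 1 to 3 counts are given as ratios with exact 95% binomial intervals and groups with none as bounds against 3 counts. Alternatives were RLE scaling, no filter, a filter of 1 CPM in 2 libraries, a replicate block, effective lengths as an offset, DESeq2, a fit of only the libraries compared, and leaving out each library.

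The script was tested on simulated counts. The members and lists were chosen with earlier results of these data known, and every member is named; members called between genotypes, and the 12 with the highest TPM, are given library by library. Of the other pathway genes the text names up to 3 per direction with the lowest adjusted p, and 8 whatever their result (Ctnnb1, Gsk3b, Lrp6, Porcn, Wls, Sp5, T and Cdx1). Lists of markers were naive, core and formative pluripotency, primitive streak and mesoderm, neural, endoderm, trophoblast and fibroblast.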

Additional observations from a re-analysis of the deposited data

Results flagged for a closer look

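For some members the difference between TKO and WT changed between day 0 and a later day by the interaction test of edgeR (adjusted p under 0.05). Values are changes of the log2 fold change of TKO against WT, positive where TKO gained relative to WT. To day 2 the positive changes were those of Sfrp2 (2.26), Sfrp4 (1.24), Sfrp1 (1.15), Fzd4 (0.93), Nkd1 (0.84) and Lef1 (0.75), and the negative ones those of Wnt6 (-2.42) and Tcf7l2 (-0.75). To day 4 the positive changes were those of Sfrp2 (2.92), Lef1 (1.54), Fzd9 (1.44), Fzd7 (1.17), Sfrp1 (1.05) and Fzd4 (0.91), and the negative ones those of Rnf43 (-2.58), Tcf7l2 (-0.74) and Tcf7 (-0.67). To day 7 the positive changes were those of Wnt10a (6.00), Wnt6 (4.00), Wnt5b (3.03), Sfrp2 (2.71), Lef1 (2.40), Nkd1 (2.23), Axin2 (2.11), Fzd10 (2.02), Lgr5 (1.40), Fzd6 (1.22), Dkk3 (1.03), Fzd9 (0.95), Fzd4 (0.83) and Tcf7 (0.33), and the negative ones those of Sfrp5 (-10.13), Wnt10b (-7.75), Wnt4 (-3.32), Fzd5 (-2.69), Rnf43 (-2.61), Tcf7l2 (-1.96), Tcf7l1 (-1.47), Sfrp4 (-0.89) and Fzd8 (-0.65).

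Under all alternative settings 1 of 8 calls held to day 2 (Sfrp2), 6 of 9 to day 4 and 14 of 23 to day 7. The values of Sfrp5, Wnt10a and Wnt10b rest on 3 or fewer counts in a group and are no estimate of size: over both libraries of a group Sfrp5 had 2 counts in WT day 0, Wnt10a 2 in TKO day 0 and Wnt10b none in WT day 0.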

How the results depend on the processing

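The 13 counts of called members were recomputed under each alternative, and no member's call reversed its direction. With only the libraries compared in the fit, 2 members passed at day 0 and 4 at day 4, in place of 6 and 13. With effective lengths as an offset 5 passed at day 2 in place of 11. Leaving out 1 library gave 4 to 8 members at day 0, 2 to 5 at day 2, 7 to 15 at day 4, 25 to 28 at day 7 and, for the changes of the genotype difference, 2 to 8 from day 0 to day 2. Apart from the block at day 2, given next, the other counts stayed within 1.5 times of those reported. Shares called over all genes are not given here for the alternatives, the block included. A fall in the members called therefore cannot be told from a fall over all genes.

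The labels give groups the same replicate numbers without saying that a number marks a shared day. The deviations of same-numbered libraries from their group means correlated between −0.63 and 0.14 across the pairs of groups, so equal numbers were not taken to pair the libraries. The −0.63 was that of WT day 0 with WT day 2, where libraries of opposite number deviated alike. All other pairs lay between -0.13 and 0.14. Whether WT day 0 and WT day 2 share a technical factor was not tested. With a replicate block the members called were 5, 7, 11 and 30 at days 0, 2, 4 and 7, and 7, 9 and 21 for the changes from day 0. Counting error limits members under about 1 CPM: a group with no counts allows up to 3.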
